A study of Mus musculus with 21 samples.

Results

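Irisin given before the neurotoxin MPTP was compared with MPTP alone in the midbrain of mice, in 3 mice of each group, across the 22641 genes with enough counts to be tested of 33829 genes in the table. The 6 mice compared are part of 21 mice with RNA-seq in the series, of which 9 belong to this pre-treatment experiment and 12 to a delayed experiment. All mice were male C57BL/6 mice, 6 weeks old by the sample labels. Mice of the group named irisin before MPTP received irisin at 200 μg/kg per day for 5 days and then MPTP at 30 mg/kg per day for 5 days, both by intraperitoneal injection. Mice of the MPTP group received ddH2O for 5 days in place of irisin and the same course of MPTP, and control mice received ddH2O for 10 days. In the delayed experiment the same doses were given in the other order, so that 3 mice had MPTP for 5 days and then irisin for 5 days, and 3 mice had MPTP and then 5 days of ddH2O. Its other mice were 3 with ddH2O followed by irisin alone and 3 controls with ddH2O for 10 days. The 3 control mice of the pre-treatment experiment were in the same fit and are given as the level without toxin. The labels call the tissue midbrain, and the methods of the study describe nigral tissue taken out by hand after perfusion. In this bulk tissue, fewer cells of a type and less RNA per cell cannot be told apart.

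MPTP is turned in the brain into a product that enters dopaminergic neurons through the dopamine transporter and blocks complex I of the mitochondrial respiratory chain. Irisin is a hormone that muscle releases by cleaving the membrane protein FNDC5, and it was injected here as a protein. Immediate early genes such as Fos, Jun and Atf3 encode transcription factors and regulators that are transcribed within minutes of a stimulus and decay soon after. Heat shock chaperones refold damaged proteins and are induced by proteotoxic stress.

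The total count was between 66.7 and 75.6 M (mega) in the 9 libraries of this experiment, and genes of the mitochondrial genome took 10.6 to 12.9% of the counts. Levels are given as CPM, which is counts per 1 M of a library's total after TMM scaling, and always in the order of mouse 1, 2 and 3. The dopaminergic markers of midbrain were present, with Th, the rate-limiting enzyme of dopamine synthesis, at 21.3, 34.8 and 24 CPM with irisin and 34.2, 51.6 and 31.5 CPM with MPTP and 34.3, 50.1 and 55.1 CPM in control mice. Mouse 2 of the MPTP group stood apart in markers of choroid plexus, the tissue that makes cerebrospinal fluid, whose summed level was 1648 CPM in that mouse and between 20.7 and 46.3 CPM in the other 8 mice. Markers of red blood cells did not overlap between the groups compared, with all 5 of 5 genes lower with irisin and a summed level of 231 to 455 CPM with irisin, 549 to 810 CPM with MPTP alone and 530 to 826 CPM in control mice. The 5 genes had a median log2 fold change of −0.93, and none passed the adjusted threshold (0 in edgeR, DESeq2 and limma, and 5 at an unadjusted p under 0.05 in edgeR). Of all tested genes, 3.29% were lower at that unadjusted p, and 7.08% had all mice with irisin below all MPTP mice. Hbb-bs and Hbb-bt, the beta globins, had log2 fold changes of −0.98 (SE 0.28) and −0.95 (SE 0.27). The part of these cells in the results on other genes was not tested. Kl, the hormone coreceptor klotho and a choroid plexus marker, had 45.3 CPM in mouse 2 of the MPTP group.

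The edgeR fit found few changed genes, and most of them were lower with irisin. Of the 22641 genes, 16 (0.0707%) passed an adjusted p of 0.05 (quasi-likelihood test of edgeR, Benjamini-Hochberg adjustment), with 3 that rose and 13 (0.0574%) that fell in the mice given irisin. At an unadjusted p under 0.05 there were 745 lower genes (3.29%) and 663 higher genes (2.93%). The number depended on the tool, since DESeq2 called 169 genes at an adjusted p under 0.05, 106 lower and 63 higher. The 3 mice with irisin all lay below the 3 mice with MPTP alone in 1604 genes (7.08%) and all above them in 1616 genes (7.14%), and all 16 genes past the threshold were among these. The median log2 fold change of all tested genes was 0.0031, so the comparison was centred. The 95% interval of the fold change lay within a 2-fold change either way for 14202 genes (62.7%), among them 95.6% of the 2066 genes with a mean of at least 100 CPM and 6.44% of the 6294 genes with a mean under 1 CPM. Of the 16 genes, 11 had a mean between 10 and 100 CPM, and 0 of the genes under 1 CPM passed in edgeR, with 106 lower and 136 higher at an unadjusted p under 0.05. A two-sided exact permutation test of 1 gene cannot go below p = 0.1 with 3 mice in each group. Without mouse 2 of the MPTP group, 26 genes passed, 14 of them lower, and 11 of the 16 were among the 26.

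The calls of Yipf6, Apold1, Isca1, Klf4, Klf2, Hspa1b and Snrnp35 held without each of the 9 mice in turn. Those of Nes, Jun, Btg2, Klf6, Fos and Dnajb1 were lost without any 1 of the 3 mice with irisin, that of Akap8 without mouse 2 or 3 of them, and those of Atf3 and Hif3a without mouse 1 or 3. Leaving out an MPTP mouse also ended calls, with mouse 1 those of Btg2, Hif3a, Jun, Akap8, Fos and Dnajb1, with mouse 2 those of Jun, Akap8, Klf6, Fos and Dnajb1, and with mouse 3 those of Hif3a, Akap8, Klf6, Fos and Dnajb1. Control mouse 1 ended those of Klf6 and Dnajb1. The adjusted p of these 9 genes reached at most 0.21 (edgeR, Benjamini-Hochberg), and none changed direction.

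**Figure D1:**
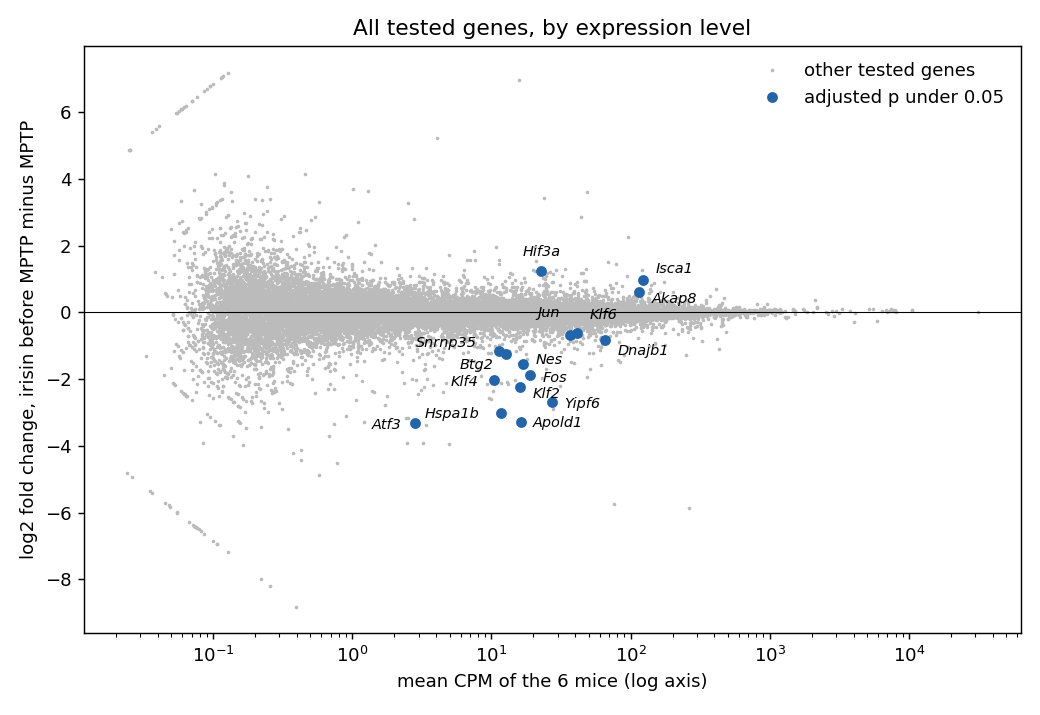
Log2 fold change of each of the 22641 tested genes between irisin before MPTP and MPTP alone (vertical axis) against its mean level over the 6 mice in CPM (horizontal log axis). Blue points are the 16 genes with an adjusted p under 0.05, of which 13 lie below 0 and 3 above, and grey points are the other tested genes, which spread more widely at low levels.

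Transcription factors of the AP-1 and ATF family bind DNA as dimers and switch on genes after a stimulus, and 3 of the 16 genes belong to it. Of 9 members tested, 3 passed the threshold and 7 had an unadjusted p under 0.05, all of them lower, and the median log2 fold change was −1.16. The share of all tested genes lower at that p was 3.29%. Atf3, a stress-induced factor (chromosome 1), had 0.48, 0.746 and 0.316 CPM with irisin and 4.35, 6.3 and 4.85 CPM with MPTP. It was the most decreased of the 16 genes, at 10.02-fold lower, and every mouse with irisin lay below every MPTP mouse and every control mouse, which had 1.1, 1.83 and 1.58 CPM. Fos (ENSMUSG00000021250, chromosome 12, 85473890 to 85477273), a partner of Jun in AP-1, had 8.2, 6.22 and 9.89 CPM with irisin and 29.3, 31.5 and 28.4 CPM with MPTP, a log2 fold change of −1.88 (SE 0.22, adjusted p = 0.021, edgeR with Benjamini-Hochberg). Control mice had 34.4, 21.3 and 33.5 CPM, so that Fos was low in the irisin group alone and the control and MPTP groups overlapped. Jun (ENSMUSG00000052684, chromosome 4, 95049034 to 95052222), the other core partner, was less decreased, with 27.4, 28.2 and 29 CPM with irisin and 47.2, 45.7 and 42.1 CPM with MPTP, a log2 fold change of −0.67 (SE 0.07, adjusted p = 0.0195, edgeR with Benjamini-Hochberg). The groups were tight, with SDs of 0.763 CPM with irisin and 2.66 CPM without, and control mice had 44.9, 40.7 and 42.2 CPM. An antisense gene, Junos, overlaps Jun over 689 bases, and whether reads were counted by strand is not given in the sources used here. Junos had a mean of 0.720 CPM with irisin and 0.831 CPM with MPTP alone, far under the level of Jun. Genes on the opposite strand also overlap Gtf2ird2 (over 4303 bases), Mertk (2435), Hspa1a (2225), Mxd4 (1001), Hif3a (908) and Mt2 (749). Others overlap Ndufb5 (616), Pgm1 (400), Isca1 (314), Glul (285), Atf3 (108) and Plin4 (17), and the same limit holds for all these counts.

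The 6 other members did not pass in edgeR, and DESeq2 also called Fosl2 and Fosb. Fosl2, a Fos relative, had 8.13, 3.41 and 6.55 CPM with irisin and 12.7, 17.8 and 11.3 CPM with MPTP, a log2 fold change of −1.21 (SE 0.29, adjusted p = 0.419, edgeR with Benjamini-Hochberg). Fosb had 2.74, 2.61 and 1.65 CPM with irisin and 5.34, 5.85 and 4.42 CPM with MPTP, a log2 fold change of −1.16 (SE 0.29, adjusted p = 0.444, edgeR with Benjamini-Hochberg). Junb had 4.09, 4.75 and 5.14 CPM with irisin and 9.83, 6.93 and 7.51 CPM with MPTP, a log2 fold change of −0.80 (SE 0.23, adjusted p = 0.56, edgeR with Benjamini-Hochberg). In each of these the irisin group lay wholly below the MPTP group. Jund, the family member that most cells express without a stimulus, had 38.2, 40.7 and 36.5 CPM with irisin and 35.6, 36.6 and 40.5 CPM with MPTP and a log2 fold change of 0.03 (SE 0.11).

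The Egr and Nr4a factors are early genes of neuronal activity, and all 7 tested had a negative log2 fold change, with a median of −0.85. None passed the adjusted threshold in edgeR (0). At an unadjusted p under 0.05, 3 were lower, against 3.29% of all tested genes, and DESeq2 called 1, Nr4a1. This gene, an orphan nuclear receptor, had 9.09, 7.78 and 11 CPM with irisin and 23.9, 21.5 and 16.7 CPM with MPTP, a log2 fold change of −1.16 (SE 0.21, adjusted p = 0.175, edgeR with Benjamini-Hochberg), and control mice had 24, 14.8 and 21 CPM. Nr4a2, which midbrain dopaminergic neurons need for their identity, had 7.55, 9.98 and 12 CPM with irisin and 14.8, 25.4 and 12.8 CPM with MPTP, a log2 fold change of −0.85 (SE 0.26, adjusted p = 0.577, edgeR with Benjamini-Hochberg).

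Of 20 other early response genes tested, 2 passed, 9 had an unadjusted p under 0.05, all lower, and 13 lay wholly below the MPTP group. Among all tested genes, 0.0574% passed as lower, 3.29% were lower at that p and 7.08% lay wholly below. The 20 genes had a median of −0.30 in log2 fold change. Apold1, an early response gene of vascular endothelial cells (chromosome 6), had 3.04, 2.62 and 3.46 CPM with irisin and 36.3, 29.3 and 22.6 CPM with MPTP. It was 9.65-fold lower, second to Atf3 among the 16 genes, and the control mice, with 9.55, 11.9 and 12.3 CPM, lay between the groups without overlapping either. Btg2 (ENSMUSG00000020423, chromosome 1, 134075170 to 134079120), which restrains cell division, had 7.51, 6.99 and 8.17 CPM with irisin and 20.4, 19 and 14.8 CPM with MPTP, a log2 fold change of −1.26 (SE 0.14, adjusted p = 0.0179, edgeR with Benjamini-Hochberg). Control mice had 15.4, 16 and 17.9 CPM of Btg2, within the range of the MPTP group.

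Ccn1, a secreted matrix protein of the early response, had 3.02, 2.9 and 2.42 CPM with irisin and 19.5, 19.3 and 10.4 CPM with MPTP, a log2 fold change of −2.56 (SE 0.37, adjusted p = 0.0695, edgeR with Benjamini-Hochberg). Csrnp1, a nuclear factor of the same response, had 5.32, 4.6 and 5.15 CPM with irisin and 7.93, 8.45 and 9.26 CPM with MPTP, a log2 fold change of −0.77 (SE 0.12, adjusted p = 0.0721, edgeR with Benjamini-Hochberg). Sik1, a kinase induced by cAMP signalling, had 7.68, 7.71 and 9.03 CPM with irisin and 15.2, 16.8 and 14.7 CPM with MPTP, a log2 fold change of −0.94 (SE 0.15, adjusted p = 0.0899, edgeR with Benjamini-Hochberg). None of these passed in edgeR, though the groups did not overlap and DESeq2 called all 3. Arc and Npas4, which follow synaptic activity in neurons, had log2 fold changes of −0.18 (SE 0.14) and −0.20 (SE 0.19), and Ier3 had 0.01 (SE 0.18). Among 12 Dusp and Spry inhibitors, which shut off ERK signalling, 0 passed in edgeR and DESeq2 called 2. At an unadjusted p under 0.05, 4 of the 12 were lower and 0 higher, against 3.29% of all tested genes lower. DESeq2 called Dusp6, with 14, 9.89 and 12.8 CPM with irisin and 19.8, 21.5 and 18.4 CPM with MPTP. It also called Dusp1, with 11.7, 7.03 and 12.3 CPM with irisin and 27.8, 23.4 and 14.6 CPM with MPTP.

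Among 14 Kruppel-like zinc finger factors, 3 fell with irisin and the other 11 did not pass, so the list had a median of −0.08 close to that of all genes. Over all tested genes, 0.0574% passed as lower. Klf2 (chromosome 8), a factor of endothelial cells that blood flow induces, had 6.11, 4.45 and 6.17 CPM with irisin and 29.3, 27.3 and 22.7 CPM with MPTP, 4.74-fold lower with irisin. Klf4 (ENSMUSG00000003032, chromosome 4, 55527143 to 55532466), its relative in the same cells and in stem cells, had 4.52, 3.52 and 4.27 CPM with irisin and 16, 17.1 and 17.2 CPM with MPTP, a log2 fold change of −2.03 (SE 0.14, adjusted p = 0.000926, edgeR with Benjamini-Hochberg). The MPTP mice stood above both other groups in these genes, since control mice had 12.4, 12 and 13.3 CPM of Klf2 and 5.62, 6.3 and 7.23 CPM of Klf4. Klf6 (ENSMUSG00000000078, chromosome 13, 5861482 to 5870394), an injury-induced member, had 31.8, 31.2 and 34 CPM with irisin and 47.1, 51.9 and 50.6 CPM with MPTP, a log2 fold change of −0.63 (SE 0.07, adjusted p = 0.021, edgeR with Benjamini-Hochberg). Klf9, the member with the highest count, had 189, 181 and 184 CPM with irisin and 186, 172 and 199 CPM with MPTP and a log2 fold change of −0.01 (SE 0.06).

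Markers of endothelial cells as a whole did not shift in one direction, with 3 of 17 higher and 3 lower at an unadjusted p under 0.05, a median of 0.03 and a summed level of 409 to 419 CPM with irisin, 393 to 407 CPM with MPTP alone and 377 to 456 CPM in control mice. Over all tested genes, 2.93% were higher and 3.29% lower at that p. Cldn5, a tight junction protein of the blood-brain barrier, had 18, 17.8 and 17.6 CPM with irisin and 12.2, 13 and 11.8 CPM with MPTP, a log2 fold change of 0.53 (SE 0.09, adjusted p = 0.129, edgeR with Benjamini-Hochberg). Pecam1, an adhesion protein of endothelium, had 21, 21.2 and 22.7 CPM with irisin and 25.3, 27.3 and 23.9 CPM with MPTP, a log2 fold change of −0.24 (SE 0.08, adjusted p = 0.695, edgeR with Benjamini-Hochberg). Neither passed in edgeR, and DESeq2 called Cldn5. Sox18, an endothelial transcription factor, had 3.06, 2.86 and 2.77 CPM with irisin and 1.86, 2.03 and 2.24 CPM with MPTP. Nes (ENSMUSG00000004891, chromosome 3, 87971078 to 87980451), an intermediate filament of neural progenitors that is also made by vascular cells, had 8.62, 8.47 and 8.89 CPM with irisin and 21, 24.5 and 29.5 CPM with MPTP, a log2 fold change of −1.53 (SE 0.15, adjusted p = 0.012, edgeR with Benjamini-Hochberg). Its mice with irisin were nearly identical, and control mice, at 14.8, 14 and 11 CPM, lay between the groups.

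**Figure D2:**
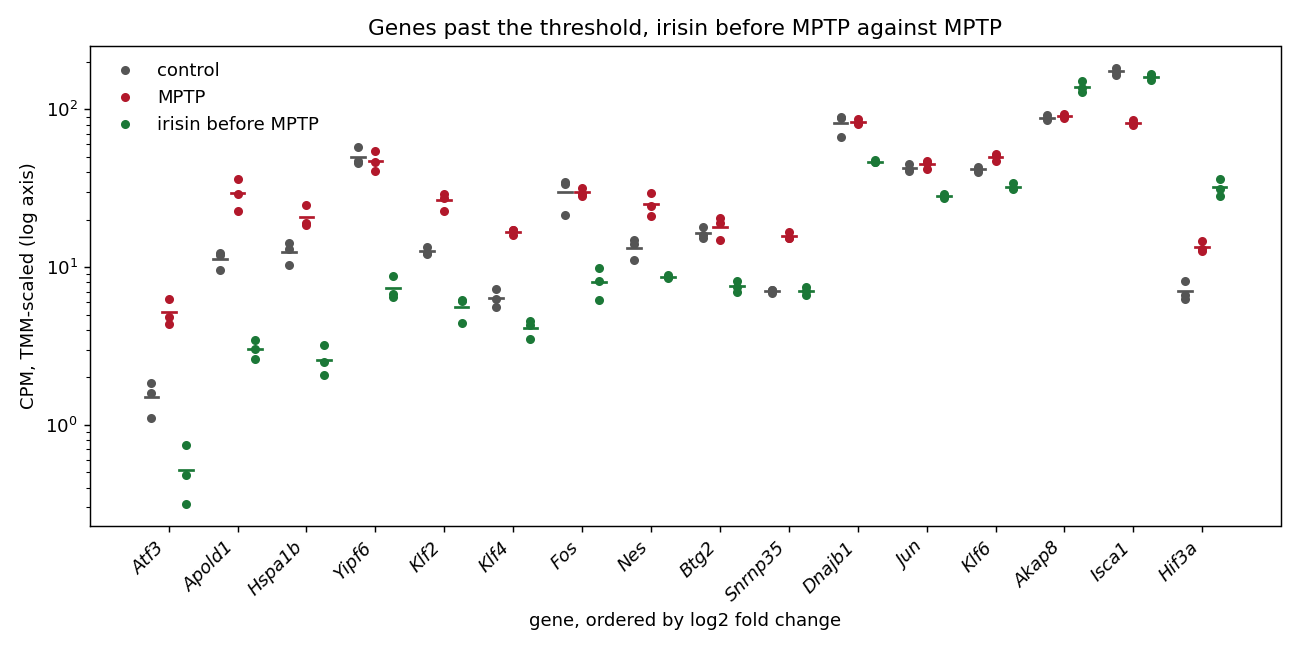
Level in CPM (vertical log axis) of the 16 genes with an adjusted p under 0.05, ordered by log2 fold change, with 1 point per mouse and a bar for the mean of 3 mice in control, MPTP and irisin before MPTP. The green points of the irisin group lie below the red MPTP points in 13 genes and above them in Akap8, Isca1 and Hif3a. The control mean lies between the other means in 10 of the 16 genes, and in 7102 (31.4%) of all tested genes. These shares are not comparable, since the 16 were chosen for a gap between the irisin and MPTP means, which leaves more room between them.

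Heat shock chaperones of the cytosol pointed one way. All 19 tested had a negative log2 fold change, 12 had an unadjusted p under 0.05 and 14 lay wholly below the MPTP group. Of all tested genes, 3.29% were lower at that p and 7.08% lay wholly below. Among the 19, 2 passed in edgeR, 6 in DESeq2 and 1 in limma. The median of −0.21 stayed between −0.26 and −0.21 over 13 alternatives. Hspa1b, the stress-inducible chaperone (chromosome 17), had 2.06, 3.2 and 2.5 CPM with irisin and 19, 18.4 and 24.9 CPM with MPTP, 8.02-fold lower. Control mice had 14.2, 10.3 and 13 CPM of Hspa1b, so the irisin group lay below both others. Hspa1a is its neighbour and nearly identical to it, so that reads could have been split between them by the counting, and it had 3.99, 5.2 and 5.63 CPM with irisin and 19.4, 19.8 and 23.1 CPM with MPTP, a log2 fold change of −2.07 (SE 0.28, adjusted p = 0.0617, edgeR with Benjamini-Hochberg). Dnajb1 (ENSMUSG00000005483, chromosome 8, 83608193 to 83612653), the partner that loads substrates on these chaperones, had 46.4, 47.4 and 46.3 CPM with irisin and 87.5, 81.4 and 81.2 CPM with MPTP, a log2 fold change of −0.84 (SE 0.11, adjusted p = 0.046, edgeR with Benjamini-Hochberg). Its control mice, at 88, 67.2 and 89.9 CPM, overlapped the MPTP mice.

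The rest of the list did not pass in edgeR. Hspb1, a small heat shock protein, had 3.77, 3.35 and 2.71 CPM with irisin and 5.84, 5.66 and 6.74 CPM with MPTP, a log2 fold change of −0.89 (SE 0.17, adjusted p = 0.175, edgeR with Benjamini-Hochberg). Chordc1, a partner of the Hsp90 chaperone, had 101, 89.5 and 109 CPM with irisin and 134, 128 and 147 CPM with MPTP, a log2 fold change of −0.45 (SE 0.08, adjusted p = 0.175, edgeR with Benjamini-Hochberg). Hsph1, which recharges these chaperones with nucleotide, had 249.7, 282 and 294 CPM with irisin and 327, 388 and 392 CPM with MPTP, a log2 fold change of −0.42 (SE 0.09, adjusted p = 0.262, edgeR with Benjamini-Hochberg). The groups did not overlap in these, and DESeq2 called all 3. Hspa8, the form that is made without stress, had 1382, 1251 and 1036 CPM with irisin and 1494, 1129.5 and 1529 CPM with MPTP and a log2 fold change of −0.18 (SE 0.13), with overlapping groups.

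Chaperones of the endoplasmic reticulum also had lower estimates with irisin. All 15 tested were negative, 7 at an unadjusted p under 0.05 and 0 at an adjusted p under 0.05 in edgeR, against 1 in DESeq2 (Pdia4), with a median of −0.23. Over all tested genes, 3.29% were lower at the unadjusted threshold. Pdia4, a disulfide isomerase, had 28.5, 31.4 and 30.5 CPM with irisin and 40.8, 43.1 and 45.9 CPM with MPTP, a log2 fold change of −0.52 (SE 0.08, adjusted p = 0.0721, edgeR with Benjamini-Hochberg). Sdf2l1, a chaperone cofactor, had 5.63, 4.66 and 5.7 CPM with irisin and 7.28, 6.99 and 7.68 CPM with MPTP, a log2 fold change of −0.46 (SE 0.13, adjusted p = 0.537, edgeR with Benjamini-Hochberg). Hspa5, the main chaperone of this compartment, had 171, 224 and 266 CPM with irisin and 299, 297 and 333 CPM with MPTP, a log2 fold change of −0.49 (SE 0.14, adjusted p = 0.548, edgeR with Benjamini-Hochberg). The amino acid and Chop branch of the integrated stress response did not go with them, since its 16 tested genes were split into 8 positive and 8 negative, with 2 higher and 0 lower at an unadjusted p under 0.05 in edgeR and a median of −0.01. The 2 were Slc7a5, an amino acid transporter, and Psat1, an enzyme of serine synthesis. Over all tested genes, 2.93% were higher at that p. Slc7a5 had 54.8, 55.9 and 50.8 CPM with irisin and 48.7, 43.2 and 40.3 CPM with MPTP. Psat1 had 185, 165 and 159 CPM with irisin and 139.6, 139.8 and 142 CPM with MPTP.

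Serpinh1, P4ha1, Adamts1, Plaur and Slc5a3 were among the 10 lower genes next in order of p, and none passed in edgeR. Serpinh1, the collagen chaperone, had 9.75, 11.4 and 11.4 CPM with irisin and 17.5, 19.6 and 19.8 CPM with MPTP, a log2 fold change of −0.80 (SE 0.11, adjusted p = 0.0582, edgeR with Benjamini-Hochberg). P4ha1, which hydroxylates collagen, had 32.2, 35.6 and 31 CPM with irisin and 49.7, 49.5 and 60.2 CPM with MPTP, a log2 fold change of −0.69 (SE 0.10, adjusted p = 0.0695, edgeR with Benjamini-Hochberg). All mice with irisin lay below all MPTP mice in these and the next 3 genes, as the rule that chose them required. Adamts1, a matrix protease, had 10.7, 11.5 and 8.97 CPM with irisin and 19.3, 30.4 and 24.8 CPM with MPTP, a log2 fold change of −1.26 (SE 0.17, adjusted p = 0.065, edgeR with Benjamini-Hochberg). The receptor Plaur, which focuses plasminogen activation on the cell surface, had 0.398, 0.407 and 0.563 CPM with irisin and 1.44, 2.45 and 1.8 CPM with MPTP, a log2 fold change of −2.05 (SE 0.31, adjusted p = 0.0721, edgeR with Benjamini-Hochberg). Slc5a3, a myo-inositol transporter that shares its locus with Mrps6, had 40.4, 41.8 and 45.6 CPM with irisin and 57.6, 69.1 and 66.4 CPM with MPTP, a log2 fold change of −0.60 (SE 0.09, adjusted p = 0.0721, edgeR with Benjamini-Hochberg). On the same strand Mrps6 and Gm49711 overlap all 29152 bases of Slc5a3, so reads from bases that they share cannot be told apart. Mrps6 had means of 20.8 CPM with irisin and 26.9 CPM with MPTP alone.

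Yipf6 and Snrnp35 also fell. Yipf6 (chromosome X), a membrane protein of the Golgi, had 8.72, 6.75 and 6.5 CPM with irisin and 46.1, 54.4 and 40.8 CPM with MPTP, 6.43-fold lower, with control mice at 45.5, 57.7 and 46.8 CPM. Control mice of the delayed experiment had 29.6, 5.92 and 38.2 CPM of Yipf6, so a level this low also occurred in a mouse given neither irisin nor MPTP. Snrnp35 (ENSMUSG00000029402, chromosome 5, 124483134 to 124491124), a protein of the minor spliceosome, had 7.09, 7.45 and 6.66 CPM with irisin and 15.2, 16.7 and 15.3 CPM with MPTP, a log2 fold change of −1.16 (SE 0.09, adjusted p = 0.00276, edgeR with Benjamini-Hochberg). Here the control mice, at 7.11, 7.18 and 6.83 CPM, were at the level of the irisin group. In the mice of the delayed experiment, in which irisin followed MPTP, Snrnp35 spread over the same range within single groups, with 7.97, 6.76 and 12.6 CPM in control mice, 14, 13.8 and 8.24 CPM with irisin alone, 9.28, 15 and 8.15 CPM with MPTP and 16.1, 9.1 and 12.9 CPM with MPTP followed by irisin. Gtf2ird2, a transcription factor, and Mxd4, a repressor of Myc targets, did not pass, and their control mice were also near the irisin group. Gtf2ird2 had 7.87, 6.51 and 9.07 CPM with irisin and 18.1, 18.9 and 14.5 CPM with MPTP, a log2 fold change of −1.13 (SE 0.16, adjusted p = 0.0636, edgeR with Benjamini-Hochberg). Mxd4 had 60.02, 47.6 and 54.7 CPM with irisin and 91, 87.2 and 88.2 CPM with MPTP, a log2 fold change of −0.71 (SE 0.10, adjusted p = 0.0685, edgeR with Benjamini-Hochberg). Control mice were at 7.19, 6.11 and 6.84 CPM and 41.7, 49.6 and 43 CPM. Mxd4 spread from 47.7 to 89.5 CPM within the mice given MPTP followed by irisin.

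The promoters of the 4 genes with the largest falls among the 16 are shown as those of the strongest calls in fold, from 250 bases before to 50 bases after the RefSeq start site in GRCm38.p6. All 16 genes had a promoter in RefSeq. Capitals mark any match, on either strand, to a cAMP response element (TGACGTCA), an AP-1 site (TGANTCA), the core of a heat shock element (GAANNTTC), a CArG box, a CCAAT box (CCAAT) or a TATA box (TATAAA). They are chr1:191183284-191183583 on the minus strand, chr6:134981751-134982050 on the plus strand, chr17:34959189-34959488 on the minus strand and chrX:98937531-98937830 on the plus strand.
Atf3: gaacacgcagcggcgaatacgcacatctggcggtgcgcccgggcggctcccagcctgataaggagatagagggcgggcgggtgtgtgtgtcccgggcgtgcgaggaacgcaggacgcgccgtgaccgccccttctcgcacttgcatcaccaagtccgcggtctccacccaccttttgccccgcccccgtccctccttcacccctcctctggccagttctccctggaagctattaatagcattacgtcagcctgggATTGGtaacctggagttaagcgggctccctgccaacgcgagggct
Apold1: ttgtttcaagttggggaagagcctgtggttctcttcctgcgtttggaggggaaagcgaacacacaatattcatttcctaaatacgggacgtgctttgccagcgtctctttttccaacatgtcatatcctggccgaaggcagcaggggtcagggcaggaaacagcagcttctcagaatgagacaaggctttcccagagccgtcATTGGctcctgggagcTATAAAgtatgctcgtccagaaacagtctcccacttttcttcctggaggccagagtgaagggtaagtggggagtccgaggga
Hspa1b: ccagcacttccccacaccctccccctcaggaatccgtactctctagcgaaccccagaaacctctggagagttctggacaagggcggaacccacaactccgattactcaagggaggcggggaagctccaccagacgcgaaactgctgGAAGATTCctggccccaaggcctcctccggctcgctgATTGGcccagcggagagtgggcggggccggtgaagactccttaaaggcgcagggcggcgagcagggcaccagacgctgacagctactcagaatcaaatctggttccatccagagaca
Yipf6: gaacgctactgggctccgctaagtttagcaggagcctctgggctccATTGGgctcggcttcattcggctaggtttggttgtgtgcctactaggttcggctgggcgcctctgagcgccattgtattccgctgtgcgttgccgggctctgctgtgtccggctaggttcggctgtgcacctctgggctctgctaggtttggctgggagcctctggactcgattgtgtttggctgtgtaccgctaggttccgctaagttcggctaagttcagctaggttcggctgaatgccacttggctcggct
The capitals are the letters of a CCAAT box in each, of a TATA box in Apold1 and of a heat shock element core (GAAGATTC) in Hspa1b. Counted from the start site, the CCAAT letters begin at base 6 in Atf3, −48 in Apold1, −67 in Hspa1b and −204 in Yipf6. In Atf3 they thus lie after the start site. Over the 13 lower genes, a CCAAT box was in 8 promoters, against 37.9% of 27025 promoters in the table. A heat shock element core was in 2 of the 13 (Hspa1b and Jun) against 7.95% of all, and a TATA box in 2 (Apold1 and Fos) against 14.2%. A cAMP response element was in 1 (Btg2) against 1.88%. The letters of an AP-1 site and of a CArG box were in 0 of the 13, against 7.93% and 1.57% of all promoters, which describes these windows only.

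Isca1, Hif3a and Akap8 rose with irisin. Isca1 (ENSMUSG00000044792, chromosome 13, 59755409 to 59769810), which builds iron-sulfur clusters in mitochondria, had 168, 153 and 163 CPM with irisin and 79.4, 85.7 and 82.4 CPM with MPTP, a log2 fold change of 0.96 (SE 0.06, adjusted p = 0.000926, edgeR with Benjamini-Hochberg). The 3 MPTP mice were low and the control mice, at 184, 172 and 166 CPM, were near the irisin group. In the delayed experiment the low and the high level both occurred within single groups, with 74.5, 65.9 and 178 CPM in control mice and 189.7, 75 and 183 CPM with MPTP. The antisense gene Etohd2 overlaps Isca1 over 314 bases and had means of 9.69 CPM with irisin and 9.78 CPM without. On the same strand the protein-coding gene Gm49354 overlaps Isca1 over 10876 bases and was not among the tested genes, so reads from bases that they share cannot be told apart. Of the other 22 tested genes of iron-sulfur cluster assembly, 0 passed in edgeR and 0 had an unadjusted p under 0.05, and the list had a median of 0.02. Mms19, of the cytosolic branch, had 35.1, 40.2 and 40.6 CPM with irisin and 36.7, 32.4 and 32.1 CPM with MPTP.

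Hif3a (ENSMUSG00000004328, chromosome 7, 17031507 to 17062427), a member of the hypoxia-inducible factor family, had 36.4, 28.3 and 31.3 CPM with irisin and 12.6, 14.7 and 13.1 CPM with MPTP, a log2 fold change of 1.25 (SE 0.14, adjusted p = 0.0179, edgeR with Benjamini-Hochberg). The control mice, at 6.28, 6.67 and 8.11 CPM, were lower still, so the 3 groups did not overlap. In the delayed experiment control mice had 17.4, 27.1 and 20.4 CPM, and mice with MPTP followed by irisin had 19.4, 3.51 and 17.6 CPM. The hypoxia genes, with Hif3a among them, gave a median of 0.05 over 16 tested, and Vegfa and Slc2a1, targets of the hypoxia pathway, had log2 fold changes of 0.05 (SE 0.08) and −0.03 (SE 0.10). Akap8 (ENSMUSG00000024045, chromosome 17, 32303672 to 32321238), a nuclear anchor of protein kinase A, had 129, 137 and 152 CPM with irisin and 93.2, 90.6 and 87.8 CPM with MPTP, a log2 fold change of 0.62 (SE 0.07, adjusted p = 0.021, edgeR with Benjamini-Hochberg). Control mice had 91.6, 85.4 and 88.3 CPM, the level of the MPTP group.

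**Figure D3:**
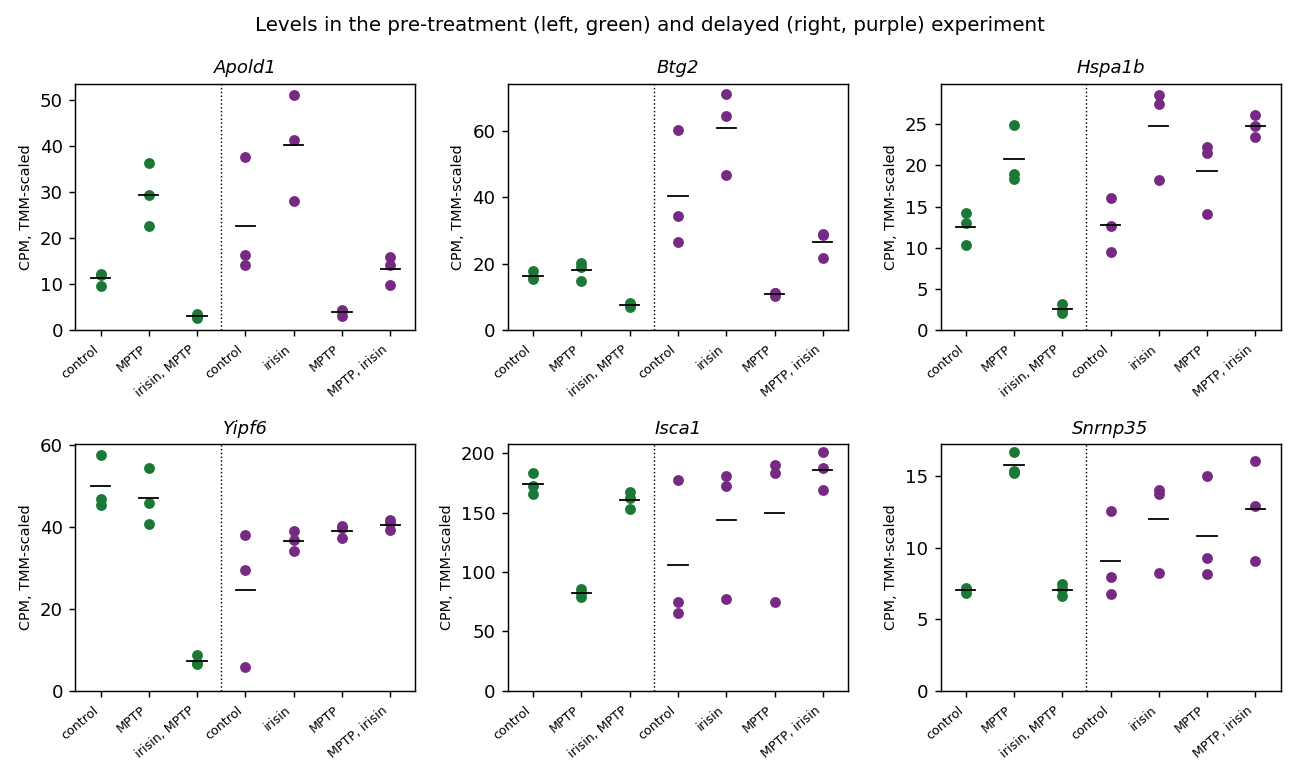
Level in CPM of Apold1, Btg2, Hspa1b, Yipf6, Isca1 and Snrnp35 in all 21 mice, with 1 point per mouse and a bar for the mean of 3, in the pre-treatment experiment (green) and the delayed experiment (purple). Isca1 and Snrnp35 spread over a low and a high level within groups of the delayed experiment, and Yipf6 was at 5.92 CPM in 1 control mouse there.

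Genes that glucocorticoids induce were split. Of 16 tested, 6 were higher and 5 lower at an unadjusted p under 0.05, 0 passed in edgeR, DESeq2 called 6 higher and 1 lower, limma called Plin4 alone, and the median was 0.31, or 0.07 without mouse 1 of the MPTP group and 0.47 without mouse 2. The shares of all tested genes at that unadjusted p were 2.93% higher and 3.29% lower. Plin4, a coat protein of lipid droplets, had 91.4, 49.3 and 92.4 CPM with irisin and 7.77, 13.5 and 10.6 CPM with MPTP, a log2 fold change of 2.87 (SE 0.42, adjusted p = 0.0695, edgeR with Benjamini-Hochberg). This was the largest difference among the higher genes named here, and control mice had 1.7, 1.73 and 4.28 CPM. In the delayed experiment Plin4 was far higher without irisin, with 49.9, 123 and 44.7 CPM in control mice and 47.8, 43.8 and 54.5 CPM with MPTP. Mt2, a metallothionein that binds zinc and copper, had 156, 131 and 178 CPM with irisin and 84.6, 77.3 and 77.1 CPM with MPTP, a log2 fold change of 0.96 (SE 0.14, adjusted p = 0.0695, edgeR with Benjamini-Hochberg). Fkbp5, a cochaperone of the glucocorticoid receptor, had 68.3, 53.9 and 65.9 CPM with irisin and 33.4, 12.8 and 36.9 CPM with MPTP, a log2 fold change of 1.18 (SE 0.33, adjusted p = 0.537, edgeR with Benjamini-Hochberg). These genes are among the 6 that DESeq2 called higher. Zbtb16, a zinc finger repressor, had 45.8, 26.4 and 28.8 CPM with irisin and 10.5, 16.7 and 19.6 CPM with MPTP, a log2 fold change of 1.11 (SE 0.29, adjusted p = 0.494, edgeR with Benjamini-Hochberg). In the same list Sgk1, a kinase, had 250.1, 183 and 258 CPM with irisin and 307, 313 and 304 CPM with MPTP, with a log2 fold change of −0.42 (SE 0.16). Per1, a clock gene, had a log2 fold change of −0.44 (SE 0.12). Of 17 clock genes, 3 were lower at an unadjusted p under 0.05 and 0 passed in edgeR, DESeq2 or limma. Nr1d1, a clock repressor, had 42.7, 49.1 and 46.1 CPM with irisin and 64.9, 49.6 and 58.6 CPM with MPTP.

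Glul, Etnppl, Mertk and Pgm1 were among the 10 higher genes next in order of p, and none passed in edgeR. Glul, the glutamine synthetase of astrocytes, had 2418, 2313 and 2455 CPM with irisin and 1868, 1700.1 and 1949.5 CPM with MPTP, a log2 fold change of 0.38 (SE 0.06, adjusted p = 0.107, edgeR with Benjamini-Hochberg). Etnppl, an enzyme of phosphoethanolamine breakdown, had 167, 171 and 173 CPM with irisin and 118, 91.5 and 101 CPM with MPTP, a log2 fold change of 0.72 (SE 0.10, adjusted p = 0.0695, edgeR with Benjamini-Hochberg). Mertk, a receptor with which glia engulf debris, had 51, 42.4 and 46.6 CPM with irisin and 30.1, 29.9 and 33.8 CPM with MPTP, a log2 fold change of 0.58 (SE 0.10, adjusted p = 0.141, edgeR with Benjamini-Hochberg). Markers of astrocytes as a list had a median of −0.04, and 1 of 9 had an unadjusted p under 0.05, the water channel Aqp4, with 283, 286 and 243 CPM with irisin and 332, 373 and 418 CPM with MPTP. Over all tested genes, 3.29% were lower at that p. Gja1, the gap junction protein of astrocytes, had a log2 fold change of −0.13 (SE 0.08). Pgm1, an enzyme of glycogen metabolism, had 138, 133 and 137 CPM with irisin and 107, 103 and 103 CPM with MPTP, a log2 fold change of 0.38 (SE 0.06, adjusted p = 0.0695, edgeR with Benjamini-Hochberg). Zfand4, Zkscan2 and Mtmr12, whose roles are less well known, had log2 fold changes of 0.88, 0.47 and 0.52.

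Mitochondrial gene lists had medians from −0.08 to 0.07, near the 0.0031 of all tested genes. Among 36 nuclear subunits of complex I, the target of MPTP's product, 1 had an unadjusted p under 0.05, 0 passed in edgeR and limma and 1 in DESeq2, with a median of 0.01. That 1 was Ndufb5, with 81.8, 91.2 and 90.2 CPM with irisin and 127, 126 and 118 CPM with MPTP, a log2 fold change of −0.49 (SE 0.07, adjusted p = 0.0698, edgeR with Benjamini-Hochberg), whose control mice were at 87.4, 96 and 98.8 CPM. In the delayed experiment Ndufb5 spread widely within single groups, with 125.7, 86.1 and 99.2 CPM with irisin alone and 129.5, 92.5 and 87.9 CPM with MPTP. Control mice there had 103, 97 and 91 CPM, and mice with MPTP followed by irisin had 82.9, 86.7 and 88.8 CPM. Ndufs8, next in order of p, had 67.8, 77.3 and 77.6 CPM with irisin and 66.7, 68.1 and 70.4 CPM with MPTP. The 13 protein genes of the mitochondrial genome were all positive, with a median of 0.07, 0 at an unadjusted p under 0.05 and 0 past the threshold in edgeR, DESeq2 and limma. Their largest log2 fold change was 0.16 (SE 0.10) for mt-Nd6, a subunit of complex I, and mt-Atp6, of the ATP synthase, had 0.12 (SE 0.10). Mitochondrial biogenesis genes had a median of −0.08 over 18 tested, with 2 lower at an unadjusted p under 0.05, Pprc1 at −0.33 and Twnk at −0.22. Of the 18, 4 lay wholly below the MPTP group and 0 wholly above, against 7.08% and 7.14% of all tested genes. At that unadjusted p, 3.29% of all tested genes were lower and 2.93% higher. Antioxidant enzymes had a median of 0.02 over 23, and 1 had an unadjusted p under 0.05. This was the peroxidase Prdx6, with 196, 203 and 151 CPM with irisin and 149, 148 and 145 CPM with MPTP, a log2 fold change of 0.32 (SE 0.11, adjusted p = 0.647, edgeR with Benjamini-Hochberg). Slc7a11, the cystine transporter, had a log2 fold change of −0.21 (SE 0.13).

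Most markers of dopaminergic neurons had a lower estimate with irisin. Of 16 tested, 15 were negative. Among them 2 had an unadjusted p under 0.05, both lower, 0 passed in edgeR and limma and 1 in DESeq2 (Slc6a3), with a median of −0.30 that was −0.13 without mouse 2 of the MPTP group and −0.50 without mouse 1. The share of all tested genes lower at that unadjusted p was 3.29%. Slc6a3, the dopamine transporter, had 28.3, 37.2 and 25.7 CPM with irisin and 51.3, 65.5 and 52.1 CPM with MPTP, a log2 fold change of −0.89 (SE 0.23, adjusted p = 0.494, edgeR with Benjamini-Hochberg), and control mice had 58.9, 106 and 105 CPM. Th had a log2 fold change of −0.55 (SE 0.26, adjusted p = 0.833, edgeR with Benjamini-Hochberg), and its groups overlapped. Slc18a2, the vesicular transporter, had 66.8, 111 and 86.7 CPM with irisin and 77.1, 169.7 and 81 CPM with MPTP, with mouse 2 of the MPTP group far above the rest. That mouse was also high in the serotonergic marker Tph2, at 171 CPM against 22.6 and 45.3 CPM in the other MPTP mice and 27, 97.4 and 69.4 CPM with irisin. Fev, a factor of the same neurons, was at 5.82 CPM in it. Aldh1a1, an enzyme of a subset of these neurons, had 357, 335 and 308 CPM with irisin and 297, 389 and 365 CPM with MPTP. Ddc, the decarboxylase that makes dopamine, had 48.6, 91 and 77.8 CPM with irisin and 54.6, 143 and 62.4 CPM with MPTP. General neuronal markers had a median of 0.07 over 10 tested with 0 at an unadjusted p under 0.05, and Rbfox3 and Tubb3 had log2 fold changes of 0.11 and 0.07. Those of oligodendrocytes had a median of −0.02 over 10 with 0, and Cldn11 of myelin and Pdgfra of their precursors had 0.17 and 0.10. Microglia had a median of −0.05 over 11, with Cx3cr1, a chemokine receptor, at 5.79, 7.91 and 6.99 CPM with irisin and 4.98, 4.97 and 5.57 CPM with MPTP. Aif1, which marks these cells, had 2.17, 3.07 and 2.14 CPM with irisin and 3.3, 2.77 and 3.46 CPM with MPTP. The lists of general neurons, oligodendrocytes and microglia had 0 calls in edgeR, DESeq2 and limma. Markers of striatal neurons were low, with Drd1, a dopamine receptor, at 1.7, 2.8 and 2.18 CPM with irisin and 4.03, 1.59 and 2.93 CPM with MPTP.

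Genes of cell death, inflammation and irisin signalling gave no call in edgeR (0). Among 19 genes of the Bcl2 family and caspases, 2 were lower and 1 higher at an unadjusted p under 0.05 and 0 passed in edgeR, DESeq2 and limma, with a median of −0.02. The 2 lower ones encode proteins known to keep cells alive, Mcl1 and Bcl2. Mcl1 had 85.2, 83.8 and 85.4 CPM with irisin and 103, 97.3 and 103 CPM with MPTP. Bcl2 had 32.4, 34.9 and 35.3 CPM with irisin and 42.3, 37 and 44.1 CPM with MPTP. Of 15 tested inflammatory cytokines and targets of NF-kB, 12 were negative, 0 passed in edgeR and 1 in DESeq2, and 1 had an unadjusted p under 0.05, the inhibitor Nfkbia, with 17.6, 15.3 and 21.2 CPM with irisin and 26.4, 28 and 29.3 CPM with MPTP, a log2 fold change of −0.63 (SE 0.15, adjusted p = 0.413, edgeR with Benjamini-Hochberg). Socs3, an inhibitor of cytokine signalling, had 0.973, 0.57 and 0.536 CPM with irisin and 1.35, 1.72 and 0.959 CPM with MPTP. Cytokine transcripts were near the detection floor, with Tnf at 0, 0.163 and 0.165 CPM with irisin and 0.648, 0.544 and 0 CPM with MPTP. Among 25 genes of irisin receptors and integrin signalling, 3 had an unadjusted p under 0.05, all lower, 0 passed in edgeR, DESeq2 and limma, and the median was −0.10. The share of all tested genes lower at that p was 3.29%. Itgb1, an integrin subunit, had 77.6, 80.4 and 79.4 CPM with irisin and 91, 99.4 and 94.8 CPM with MPTP. Itgb5, a subunit of an irisin receptor, had 31.4, 32.4 and 31.6 CPM with irisin and 32.3, 40.6 and 38 CPM with MPTP, a log2 fold change of −0.22 (SE 0.10, adjusted p = 0.805, edgeR with Benjamini-Hochberg). Fndc5, the gene of irisin itself, had 135, 134 and 127 CPM with irisin and 149, 137 and 152 CPM with MPTP, a log2 fold change of −0.14 (SE 0.06, adjusted p = 0.754, edgeR with Benjamini-Hochberg), a transcript that does not report the injected protein. Neurotrophic factors and their receptors had 0 of 14 at an unadjusted p under 0.05 and 0 calls in edgeR, DESeq2 and limma, with Gdnf, which supports dopaminergic neurons, at 0.37, 0.489 and 0.398 CPM with irisin and 0.561, 0.645 and 0.599 CPM with MPTP.

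**Figure D4:**
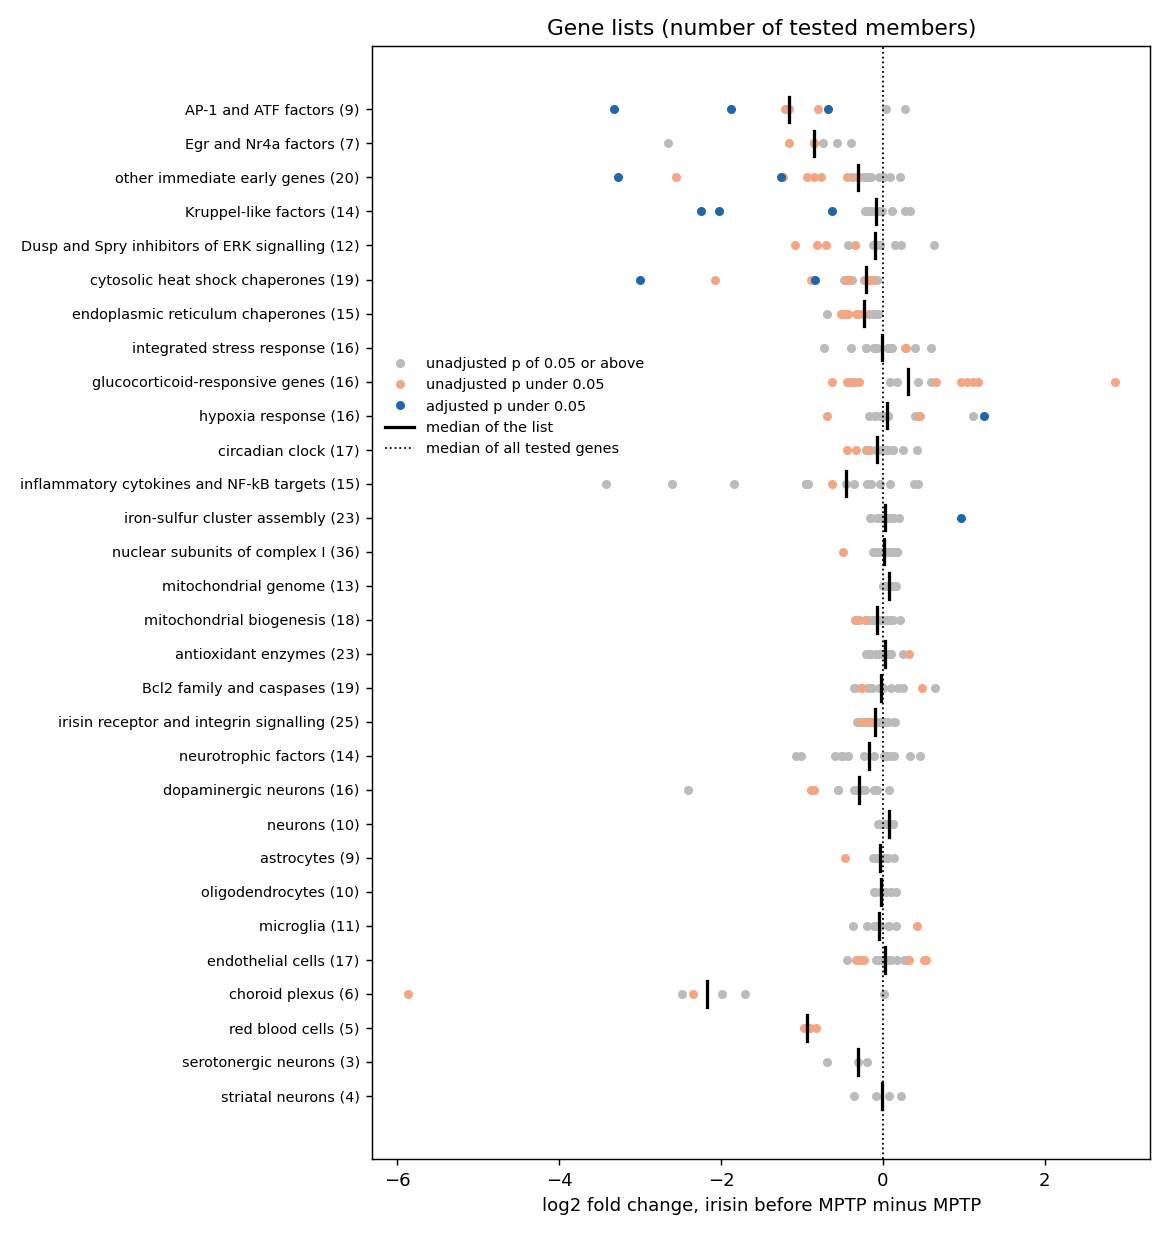
Log2 fold change between irisin before MPTP and MPTP alone (horizontal axis) of each tested member of 30 gene lists, with the number of members tested in brackets, a black bar for the median of the list and a dotted line for the median of all tested genes. The medians of the AP-1 and ATF factors (−1.16) and the Egr and Nr4a factors (−0.85) lie left of the dotted line, while those of the mitochondrial lists lie near it and that of choroid plexus (−2.17) was 0.17 without mouse 2 of the MPTP group.

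The same comparison with irisin given after MPTP, in the delayed experiment, used 3 other mice in each group. None of the 16 genes passed there in edgeR (0, with no other tool run), and 3 had an unadjusted p under 0.05, Apold1, Btg2 and Fos, each with a positive log2 fold change. Apold1 was at 4.11, 4.43 and 2.98 CPM with MPTP and 9.68, 15.9 and 14 CPM with delayed irisin, a log2 fold change of 1.78 (SE 0.37). Btg2 was at 11.1, 11.2 and 10.4 CPM and 21.8, 28.6 and 28.9 CPM, a log2 fold change of 1.28 (SE 0.27). In these 2 genes the MPTP mice of the delayed experiment were the lowest of its 4 groups, while in the pre-treatment experiment the irisin group was the lowest of 3. Of the 13 genes that fell with pre-treatment, 3 had a negative log2 fold change with delayed treatment.

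The difference between the irisin effects was tested in a fit over all 21 mice. Of 23364 genes, 18 (0.077%) had an adjusted p under 0.05 from edgeR with Benjamini-Hochberg adjustment, in 15 of them with the lower effect in the pre-treatment experiment. Among the 18 were 9 of the 16 genes, which were Apold1, Klf4, Klf2, Hspa1b, Nes, Btg2, Jun, Fos and Dnajb1. For Klf2 the difference of log2 fold changes was −2.58 (SE 0.23, adjusted p = 5.69e-05, edgeR with Benjamini-Hochberg), and for Fos it was −2.36 (SE 0.26, adjusted p = 0.000396, edgeR with Benjamini-Hochberg). For Nes it was −1.52 (SE 0.22, adjusted p = 0.00626, edgeR with Benjamini-Hochberg). Atf3 and Yipf6 did not pass this test, with differences of −3.14 (SE 0.65, adjusted p = 0.137, edgeR with Benjamini-Hochberg) and −2.73 (SE 0.54, adjusted p = 0.0924, edgeR with Benjamini-Hochberg), and for Isca1 the difference was 0.66 (SE 0.50, adjusted p = 0.971, edgeR with Benjamini-Hochberg). The 16 genes were chosen by the pre-treatment effect that enters the difference, so their share among the 18 is a description. The experiments differed in the time of irisin, in the time since the last MPTP dose, which 5 days of irisin or ddH2O followed in the delayed mice, and in their libraries, of 48.8 to 77.2 M counts in the delayed experiment. These cannot be told apart.

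**Figure D5:**
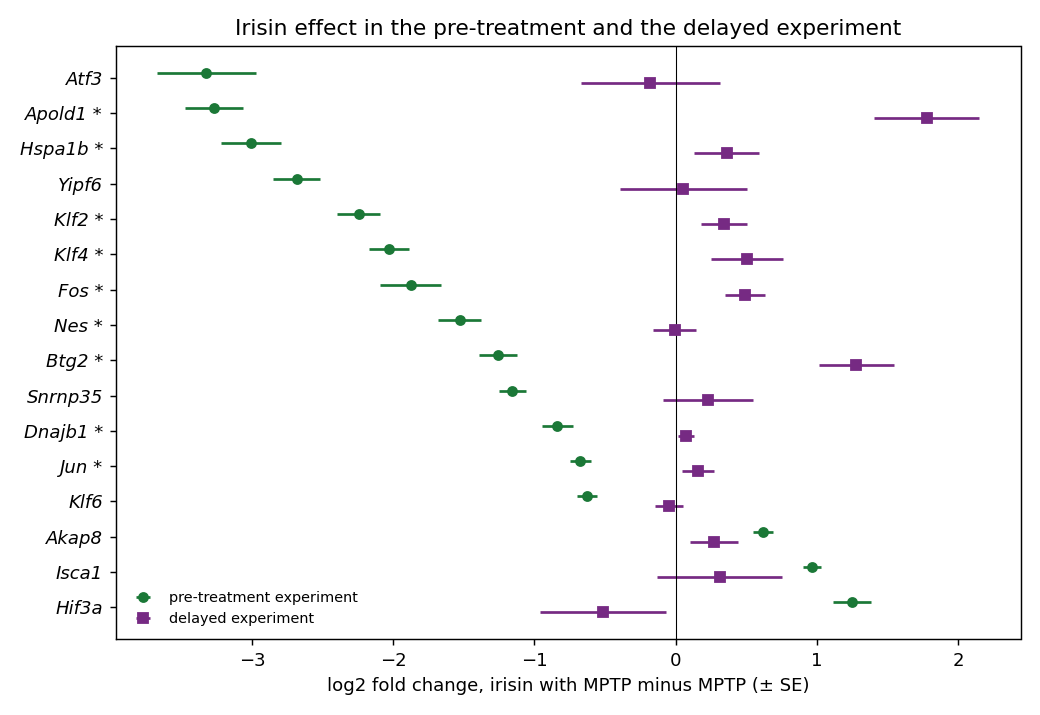
Log2 fold change with irisin against MPTP alone (horizontal axis, point ± SE, 3 mice against 3) of the 16 genes in the pre-treatment experiment (green circles) and the delayed experiment (purple squares). An asterisk marks the 9 genes whose effects differed at an adjusted p under 0.05, from Apold1 at −3.27 and 1.78 to Jun at −0.67 and 0.16.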

How the data were processed

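RNA-seq of 21 mice in 7 groups of 3 was used, 9 of them from the pre-treatment experiment. The authors counted reads per gene with featureCounts and deposited raw counts and FPKM values per mouse. The submitters' processing notes also name HISAT, StringTie, edgeR and mm9, while 91.87% of the genes had the start, end and strand of GENCODE M21 on GRCm38, so coordinates are given on GRCm38. The use of strand is not given in the sources used here. Nothing but the labels shows that samples are separate mice. In the pre-treatment experiment no pair within a group agreed within sampling noise, and pairs of the delayed experiment were not checked.

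The two-sided quasi-likelihood test of edgeR 4.0.16 (R 4.3.3) was run on the counts of the 9 mice in 1 fit, after filterByExpr (least count 10, least total 15) and TMM scaling, and on 21 mice for the difference between experiments. The Benjamini-Hochberg adjustment covered every tested gene, the threshold was 0.05, and SE is the log2 fold change divided by the square root of F. Alternatives used DESeq2 1.42.0, limma 3.58.1 on log2(FPKM + 1) and log2(FPKM + 0.1), other filters and scalings, the replicate number as a block and leaving out each mouse in turn. On the log2(FPKM + pseudocount) scale, changes of low genes are understated. The steps were tested on simulated counts.

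Genes named were all past the threshold, the 10 higher and 10 lower others with the smallest p, a mean of at least 1 CPM and groups that did not overlap, the 2 members of each list with the smallest p, dopaminergic markers, and overlapping or near-identical genes. Other list members are named for their role after their values were seen. Some genes that this rule gives are not reported here. The members, the 30 gene lists and the rule were chosen with earlier results of these data known.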

Additional observations from a re-analysis of the deposited data

Results flagged for a closer look

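The irisin effect differed between the pre-treatment and the delayed experiment in 18 genes by the test of the difference itself, and 15 of them are genes named by the rule or members of the lists. The rule chose genes by the pre-treatment effect, which enters the difference, and the lists were chosen with earlier results known. The count of 15 is therefore a description only. The differences of log2 fold changes (pre-treatment minus delayed) of genes that fell with pre-treatment were −5.04 for Apold1, −3.36 for Hspa1b, −2.58 for Klf2, −2.53 for Btg2, −2.53 for Klf4, −2.36 for Fos, −1.52 for Nes, −0.91 for Dnajb1 and −0.82 for Jun. Among genes that did not pass in the pre-treatment comparison, the difference was −4.15 for Ccn1, −2.54 for Hspa1a, −2.07 for Dusp1, −2.07 for Ier2, −1.39 for Sik1 and 0.93 for Mt2, each with an adjusted p under 0.05 from edgeR with Benjamini-Hochberg adjustment. Ccn1 was at 3.67, 3.99 and 3.23 CPM with MPTP and 9.99, 10.3 and 12.7 CPM with delayed irisin, the reverse of its order in the pre-treatment experiment. Mt2 was at 109, 111 and 106 CPM with MPTP and 98.1, 114 and 122 CPM with delayed irisin. The cause of these differences was not tested.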

How the results depend on the processing

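The count of 16 genes was 16 with median ratio scaling, 15 without a filter, 17 with a mean FPKM of at least 1, 21 with the 6 mice compared alone, and 15 and 14 with limma on log2(FPKM + 1) and log2(FPKM + 0.1). It was 169 with DESeq2 (63 higher and 106 lower), 38 at an adjusted p under 0.1 and 314 for a change of at least 2-fold at an unadjusted p under 0.05 (150 higher and 164 lower). Leaving out 1 mouse at a time gave 10 genes (without irisin before MPTP mouse 3) to 26 genes (without MPTP mouse 2). Yipf6, Apold1, Isca1, Klf4, Klf2, Hspa1b and Snrnp35 passed under all 17 alternatives run for them, none of the 16 changed direction (0 reversed), nor did the 10 higher and 10 lower genes next in order of p, and each of the other 9 lost its call under 2 to 11 of them, Dnajb1 under the most. Nes, Atf3, Btg2, Hif3a, Jun, Akap8, Klf6, Fos and Dnajb1 each lost it without at least 1 mouse of the irisin group. The 18 genes whose effects differ became 18 with median ratio scaling, 17 without a filter and 11 (without MPTP mouse 1 of the pre-treatment experiment, and also without MPTP mouse 2 of the delayed experiment) to 22 without 1 mouse. Of 390 list medians under alternatives, 47 moved by over 1 SD and 21 changed sign, among them choroid plexus, at 0.17 without MPTP mouse 2, and serotonergic neurons, at 0.92. The cause was not tested. Depth limited genes under 1 CPM, where the median SE was 0.69 with 0 of 6294 genes past the threshold in edgeR.

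With the replicate number as a block, 8 genes passed (1 higher and 7 lower), all among the 16, and 13 genes differed in effect. Same-numbered mice of the irisin and MPTP groups had deviations that correlated across genes at −0.08, −0.01 and −0.03. Mice with different numbers had correlations from −0.05 to 0.08. Control mice and mice of the delayed experiment were not compared in this way. Whether equal numbers mark a shared batch, litter or day is therefore not known, and why calls were lost under the block was not tested.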
